A study of Ambystoma mexicanum with 49 samples.

Results

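The step from late gastrula to early neurula of the axolotl (Ambystoma mexicanum, a salamander) was examined by comparing poly(A) libraries of 3 embryos at stage 14 with those of 3 embryos at stage 12. These are 6 of the 49 poly(A) libraries of the series, and they were chosen by their stage label alone. The series follows mRNA over 17 stages, from the egg to stage 40, with 3 embryos at most stages. Every library came from the RNA of a single whole embryo, which had its jelly coat removed, was gathered at 20 °C and was kept in an RNA preservative until extraction. Neither group carries a treatment, mutation or transgene in the labels, which also leave strain, clutch, sex and hours of age open. The p-values therefore rest on the spread between single embryos of unstated parentage. That spread was estimated over the embryos of all 17 stages, not from the 6 compared embryos alone.

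Gastrulation in amphibians carries mesoderm and endoderm inside the embryo, and neurulation then turns the dorsal ectoderm into the neural plate, whose edges rise as folds and fuse into the neural tube. During these stages genes of the mesendoderm and of the organizer, the dorsal signalling centre of the gastrula, give way to genes of regional identity in the brain, neural crest, somites and lateral mesoderm. The HOX genes, homeobox genes that lie in clusters and assign position along the body axis, come on around the same time.

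Levels are given as TPM (relative transcript abundance, which the authors scaled for library total and gene length), always in the order of replicates 1, 2 and 3. Changes are log2 ratios of stage 14 over stage 12 with their SE, fitted on the estimated counts of all 49 libraries with edgeR's quasi-likelihood test and Benjamini-Hochberg adjustment over 14437 genes. The fit also scales between libraries by TMM factors, 0.670, 0.725 and 0.697 at stage 12 and 0.566, 0.610 and 0.559 at stage 14. TPM lack this scaling, so a gene with a fitted change near 0 tends to be lower in TPM at stage 14. A gene is said to have risen or fallen when its adjusted p was below the threshold of 0.05. In whole embryos, fewer cells of a type and less RNA per cell cannot be told apart.

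The stage 12 libraries held 37.9, 23.0 and 18.0 M estimated counts and those of stage 14 held 13.8, 21.9 and 12.0 M. Root mean square log2 differences between libraries were 0.603 to 0.838 within a stage and 1.42 to 1.64 between the stages. The mitochondrial transcript COX1 took 8.76%, 8.50% and 6.36% of the counts at stage 12 and 7.78%, 4.02% and 6.75% at stage 14. Replicate 2 of stage 12 stood nearer to the earlier stage than the other two. This was ranked over 2263 genes at least 4-fold higher at stage 16 than at stage 11, cut by a minimum of 1 TPM to 1202. The minimum used stage 12 levels, so the choice was not independent of them. Replicate 2 was the lowest of the 3 embryos for 809 of the 1198 genes without a tie (67.5%). Among 1233 genes at least 4-fold lower, 976 passed the same minimum, and it was the highest for 731 of these (74.9%). Without this embryo 3547 genes rose and 3125 fell, against 3960 and 3590 with it.

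Over the interval 3960 of 14437 genes rose (27.4%) and 3590 fell (24.9%), so that 52.3% changed in either direction. The split depended on the scaling between libraries, with 4525 higher and 2617 lower by DESeq2 size factors and 3030 and 4951 by library size alone. List counts given below for either scaling have these numbers of the 14437 genes as their background, not 27.4% and 24.9%. Under these 2 scalings the log2 change of a gene differed from the main fit by a median of 0.16 and -0.27. Large changes went mostly upward, since 1613 genes (11.2%) rose at least 4-fold and 137 (0.949%) fell at least 4-fold. Under the alternative fits these numbers ranged from 1157 to 1772 and from 84 to 239. The TPM of the 3 libraries did not overlap, with stage 14 higher, for 22.7% of the tested genes and, with stage 14 lower, for 39.3%. These shares are the background for every gene below whose groups are said not to overlap. The genes that rose at least 4-fold had a median of 0.397 TPM at stage 8, a blastula stage, and 37.9% of them reached 1 TPM there. Those that fell at least 4-fold had a median of 12.7 TPM at stage 8, and 83.9% reached 1 TPM. All genes that rose had a median of 15.4 TPM and all that fell 51.9 TPM, with 72.2% and 99.2% at 1 TPM or more. Over all genes tested the stage 8 median was 22.2 TPM and the share 79.1%. Genes at 1 TPM or more numbered 10691, 10663 and 10610 in the stage 12 embryos and 11073, 11331 and 11058 in those of stage 14. The mean difference was 499 genes (exact permutation test, two-sided, p = 0.1, the smallest p that 3 against 3 allow). The larger numbers came from the stage 14 libraries, which were on the whole the shallower ones, and at a minimum of 5 TPM the difference was -123 (exact permutation p = 0.3).

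**Figure D1:**
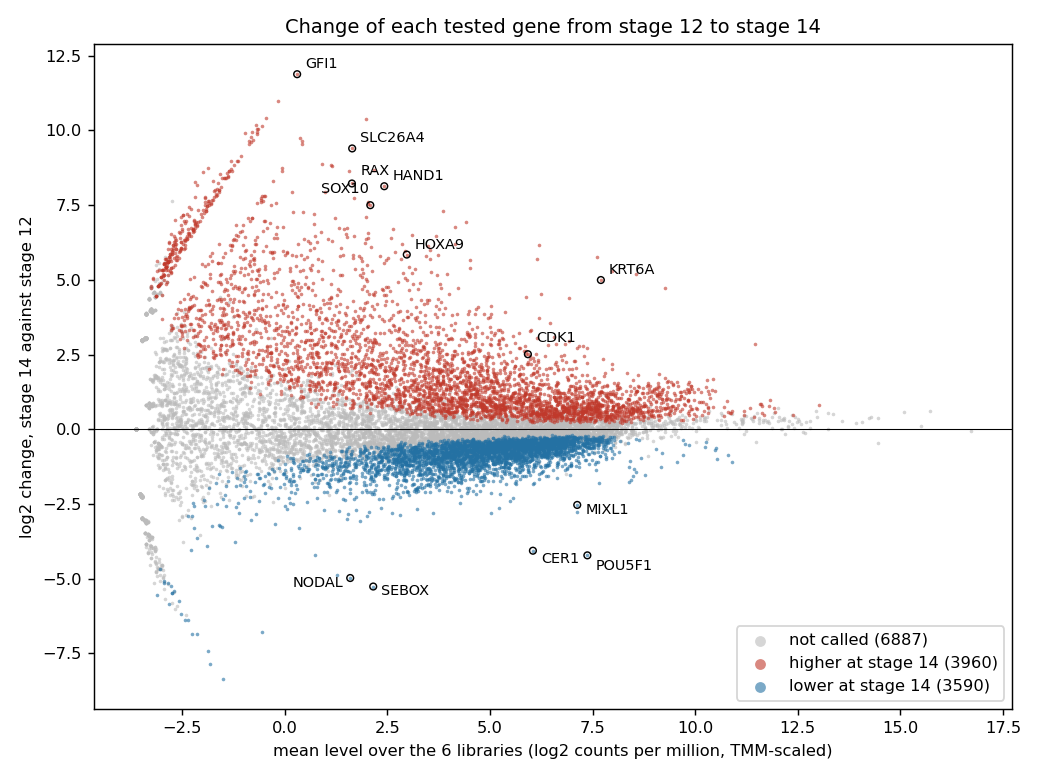
Log2 change from stage 12 to stage 14 (vertical axis) against the mean level over the 6 libraries (horizontal axis, log2 CPM, counts scaled for library total), 1 point per tested gene. Red points are the 3960 genes that rose, blue points the 3590 that fell and grey points the rest, and the points far above 0 outnumber those far below it. Fitted changes of genes at 0 counts in a stage, which form the slanted line at the upper left, depend on the prior count and are no measured folds.

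A set of 61 genes was below 0.5 TPM in each stage 12 embryo and at 5 TPM or more in each stage 14 embryo, and 1 gene, a locus without a symbol, showed the opposite. Of the 61, 59 still averaged 5 TPM or more at stage 16 and 43 at stage 40, while 37 had averaged less than 0.5 TPM at every stage from 2 to 8. The set includes RAX of the forebrain, EN2 of the midbrain, SOX10 of the neural crest, HMX2 of the inner ear placode, HOXC8, FGF10 and SLC26A4, names taken from it after its values were seen. With limits of 0.1 and 1 TPM the set held 82 genes, and with 1 and 10 TPM it held 43.

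**Figure D2:**
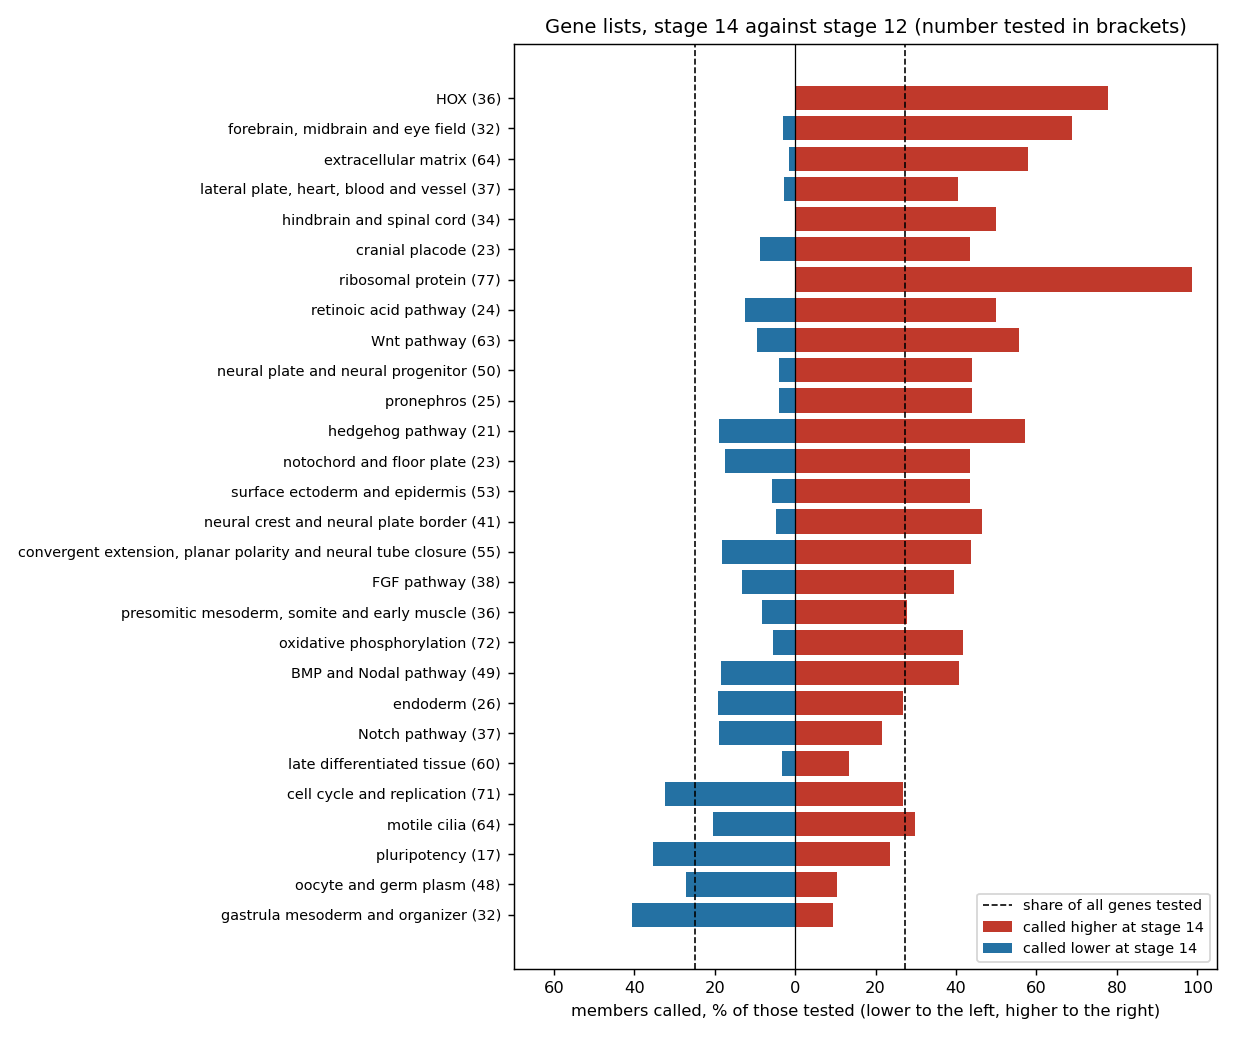
Share of the tested members of each of 28 gene lists that rose (red, to the right) or fell (blue, to the left), in percent, with the number tested in brackets. Dashed lines mark the shares over all genes tested, 24.9% lower and 27.4% higher, and ribosomal protein and HOX genes reach farthest to the right (98.7% and 77.8%), the gastrula mesoderm and organizer genes farthest to the left (40.6%).

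Of 32 genes of the gastrula mesoderm and organizer 13 fell (40.6% against 24.9% of all genes) and 3 rose (9.38% against 27.4%), with a median log2 change of -0.85 against 0 for all genes. Their summed level was 3050.3 to 3503 TPM in the stage 12 embryos and 1261 to 1429.6 in those of stage 14, without the scaling between libraries that the fitted changes use. POU5F1, a gene of the pluripotency list that keeps early embryonic cells uncommitted, was at 263, 313 and 242 TPM at stage 12 and at 9.53, 11.9 and 14.8 at stage 14. Every stage 14 embryo lay more than a factor of 10 below the lowest embryo of stage 12 (log2 change -4.22 ± 0.38, adjusted p = 1.60e-11). CER1 (Cerberus), which is secreted and binds Nodal and BMP ligands, fell from 327, 432 and 278 to 17.9, 16.4 and 16.8 TPM, and the 3 later embryos lay close together (-4.06 ± 0.45, adjusted p = 3.14e-09). MIXL1, a homeobox gene of mesendoderm, was at 638, 917 and 683 TPM and then at 51.9, 161 and 108 TPM (-2.53 ± 0.46, adjusted p = 1.56e-05). The groups did not overlap for MIXL1, as for 39.3% of all genes tested with stage 14 lower, although its stage 14 embryos spread widely.

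The Nodal ligand and its feedback inhibitor fell together to near the limit of detection. NODAL went from 3.83, 9.27 and 2.54 to 0.0258, 0.247 and 0.0892 TPM (-4.98 ± 0.68, adjusted p = 1.37e-07). LEFTY2, which blocks Nodal receptors, went from 7.52, 11.8 and 4.33 to 0.0595, 0.305 and 0.274 TPM (-4.88 ± 0.70, adjusted p = 5.51e-07). For both genes replicate 2 of stage 12 was the highest embryo and no stage 14 embryo reached 0.5 TPM. SEBOX, a homeobox gene, had the steepest decrease selected by the rule for named genes, from 25.9, 54.7 and 19.8 to 1.06, 0.961 and 0 TPM (-5.26 ± 0.61, adjusted p = 1.01e-08). Some genes that were already low at stage 12 fell further. Among them were GSC, the homeobox gene of the organizer (-2.70 ± 0.56, adjusted p = 1.52e-04), and EOMES, a T-box gene of mesendoderm (-3.06 ± 0.48, adjusted p = 1.77e-06). NANOG, a pluripotency factor, did the same (-2.62 ± 0.65, adjusted p = 8.68e-04). Of the 17 pluripotency genes tested 4 rose and 6 fell (23.5% and 35.3%, against 27.4% and 24.9% of all genes). DPPA4, expressed in pluripotent cells of mammals, was among those that fell (-2.02 ± 0.36, adjusted p = 1.21e-05). NR5A2, a nuclear receptor counted in the same list, rose (6.55 ± 0.46, adjusted p = 7.83e-14).

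T (brachyury), the T-box gene of early mesoderm and notochord, was at 236, 307 and 212 TPM at stage 12 and 66.0, 65.0 and 61.0 at stage 14. Its 3 stage 14 embryos lay close together and all below those of stage 12, yet the fitted change was only just past the threshold (-1.69 ± 0.66, adjusted p = 0.0287). The call of T was lost without replicate 2 of stage 12 (adjusted p = 0.0726) and without replicate 1, 2 or 3 of stage 14 (0.0601, 0.0747 and 0.0698). MSGN1, which commits cells to the presomitic mesoderm, likewise fell from 281, 249 and 202 to 83.0, 55.6 and 50.2 TPM (-1.68 ± 0.61, adjusted p = 0.0222). This call was lost without replicate 1 of stage 12 (0.0718) and without replicate 2 or 3 of stage 14 (0.0763 and 0.0743). WNT11, a ligand that steers cell movements of gastrulation, fell from 43.5, 64.1 and 45.3 to 7.16, 9.53 and 8.59 TPM with no overlap (-2.32 ± 0.33, adjusted p = 2.34e-07).

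The general neural marker SOX2 was already abundant at stage 12, while many genes of regional identity rose from near 0. SOX2, a marker of neural progenitors, stood at 156, 126 and 131 TPM at stage 12 and at 126, 121 and 131 at stage 14, with overlapping groups and no significant change (0.15 ± 0.17, adjusted p = 0.492). Its fitted direction turned with library size alone (-0.12). Among 32 genes of forebrain, midbrain and eye field 22 rose (68.8% against 27.4% of all genes) and 1 fell. Their median change was 2.92, or 2.51 when genes at 0 counts are set to their bounds. In the hindbrain and spinal cord list 17 of 34 rose (50.0%) and 0 fell, or 13 and 2 by library size alone. In the neural plate list 22 of 50 rose and 2 fell (44.0% and 4.00%, against 27.4% and 24.9% of all genes). By library size alone 18 rose and 4 fell.

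RAX, the homeobox gene of the eye field, rose from 0.0352, 0.0576 and 0.449 TPM to 38.3, 48.6 and 23.4 TPM (8.22 ± 0.68, adjusted p = 1.62e-12). All 3 stage 12 embryos were below 0.5 TPM and all 3 of stage 14 above 20. EN2, which patterns the junction of midbrain and hindbrain, had 1 count in all of stage 12 and reached 9.48, 6.33 and 7.90 TPM, a ratio of 982-fold, with an exact counting interval of 175 to 38874 (adjusted p = 1.65e-11). EGR2, a zinc-finger gene of hindbrain segments, had 0 counts at stage 12 and 7.05, 9.44 and 4.06 TPM at stage 14, at least 103-fold higher (adjusted p = 7.27e-06). Such bounds set a group at 0 to a floor of 3 counts. LMX1B, of midbrain and dorsal neural tube, rose from 0.719, 0.420 and 0.437 to 34.3, 41.1 and 40.3 TPM (6.37 ± 0.48, adjusted p = 4.88e-13). PAX6, a gene of eye and neural tube, was detectable in every stage 12 embryo at 0.978, 0.562 and 2.10 TPM and rose to 18.9, 18.1 and 14.2 (4.11 ± 0.66, adjusted p = 2.06e-06). For LMX1B and PAX6 every stage 14 embryo was above every embryo of stage 12, as for 22.7% of all genes tested. WNT1, a midbrain ligand, rose from 0.157, 0.162 and 0.0700 to 5.73, 3.81 and 1.81 TPM (5.01 ± 0.56, adjusted p = 1.95e-09), and OLIG3, of the dorsal neural tube, by 5.23 ± 0.51. SIX3 of the forebrain was already at 19.3, 11.8 and 14.0 TPM and moved to 30.0, 24.9 and 19.0, with a marginal call (0.98 ± 0.41, adjusted p = 0.0484). It was lost without replicate 2 or 3 of stage 12 (0.167 and 0.117) or replicate 1 or 2 of stage 14 (0.170 and 0.0775).

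Decreases in the neural lists were few. OTX2, a homeobox gene of the head that is also expressed in anterior mesendoderm, was the 1 gene of its list that fell, from 73.7, 65.5 and 57.1 to 17.6, 25.5 and 26.0 TPM without overlap (-1.24 ± 0.36, adjusted p = 0.00445). GMNN (geminin), which restrains DNA replication and favours neural fate, fell from 196, 213 and 182 to 83.3, 58.7 and 87.1 TPM (-1.08 ± 0.15, adjusted p = 9.10e-08). Members of the neural plate list that rose included the adhesion molecules CDH2 (N-cadherin), from 7.64, 6.30 and 7.58 to 40.1, 59.3 and 40.3 TPM (2.96 ± 0.42, adjusted p = 2.35e-07), and NCAM1 (3.83 ± 0.30, adjusted p = 5.59e-13). The filament gene NES of the same list (3.59 ± 0.43, adjusted p = 7.43e-09) and the growth regulator MYCN of the neural crest list (3.60 ± 0.32, adjusted p = 1.99e-11) rose as well. NEUROD4, a gene of early neurons, went from 0, 0 and 0.274 to 3.36, 3.27 and 3.90 TPM (5.93 ± 0.72, adjusted p = 8.94e-08).

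**Figure D3:**
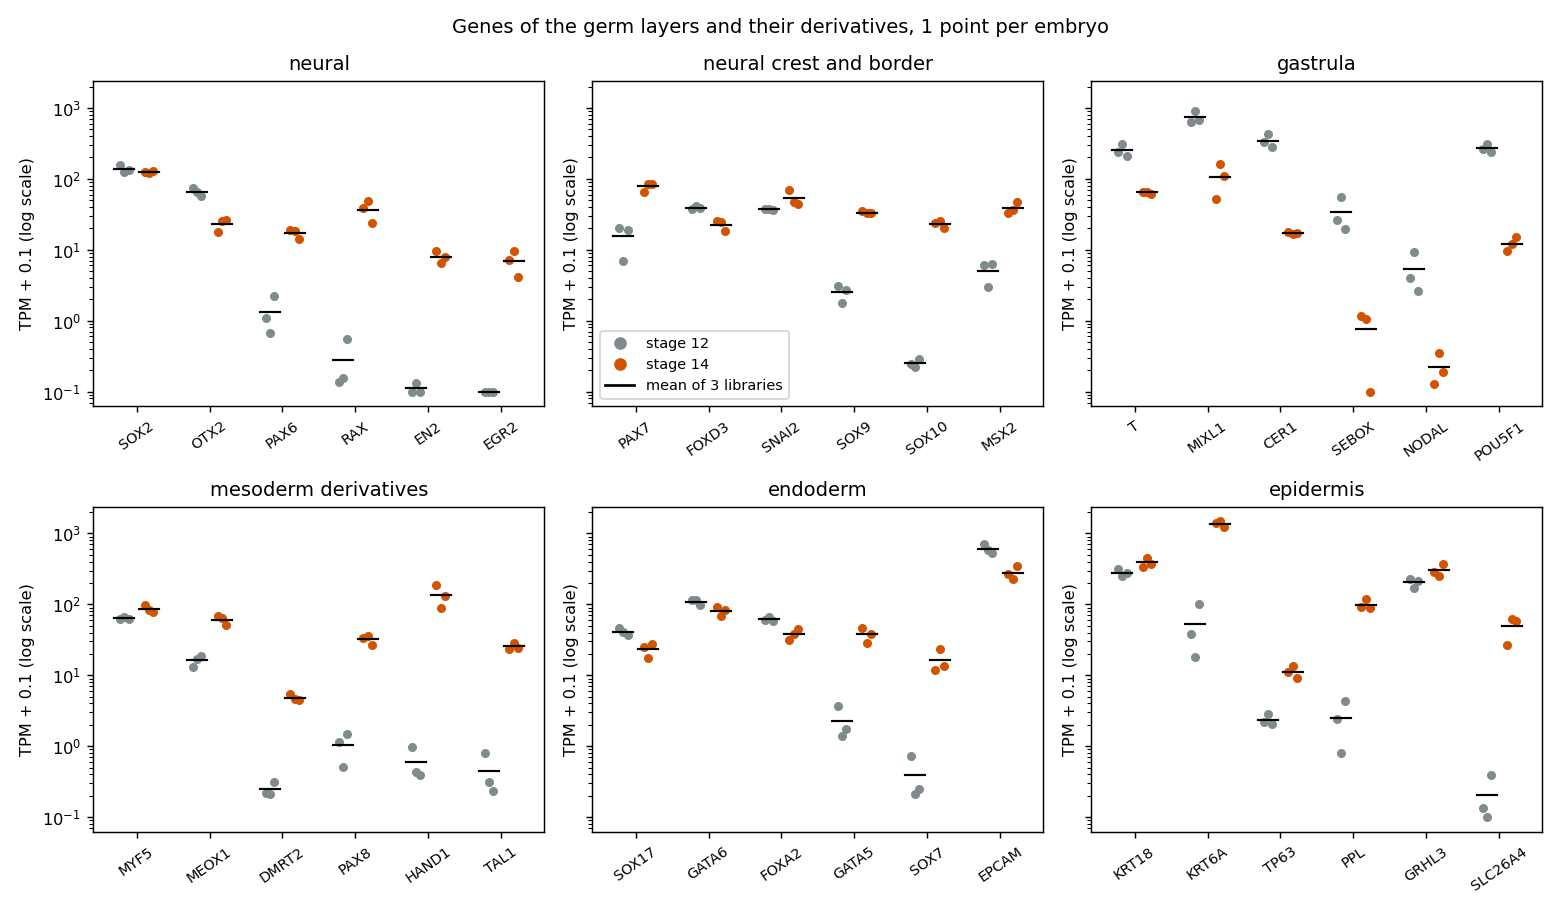
TPM of genes of 6 tissues (vertical axis, TPM + 0.1 on a log scale), 1 point per embryo, grey for stage 12 and orange for stage 14, bars at the mean of 3. SOX2, SNAI2, MYF5, GATA6 and GRHL3 shift little on this scale between the stages. Only the groups of SOX2 overlap among these, since SNAI2, MYF5 and GRHL3 are higher and GATA6 lower in every stage 14 embryo. RAX, EN2, EGR2, SOX10, HAND1 and SLC26A4 climb from the bottom of their panels, and SEBOX, NODAL, CER1 and POU5F1 drop.

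In the neural crest and neural plate border list 19 of 41 genes rose and 2 fell (46.3% and 4.88%, against 27.4% and 24.9% of all genes), or 16 and 5 by library size alone, with a median change of 0.70. The early specifiers SNAI2 and FOXD3 were present before the interval, and neither passed the test. SNAI2 was at 37.2, 37.4 and 36.2 and then 69.4, 46.3 and 43.9 TPM (0.81 ± 0.36, adjusted p = 0.0556). FOXD3 was at 37.9, 41.7 and 38.1 and then 25.5, 24.1 and 18.1 TPM (-0.52 ± 0.33, adjusted p = 0.182). SOX9, of crest and cartilage, rose from 2.97, 1.65 and 2.58 to 34.5, 32.3 and 32.4 TPM (4.04 ± 0.68, adjusted p = 5.19e-06). SOX10, of migrating crest and its glia and pigment cells, rose from 0.142, 0.123 and 0.185 to 23.5, 25.6 and 20.3 TPM (7.50 ± 0.65, adjusted p = 7.76e-11). Neither gene's groups overlapped, as for 22.7% of all genes tested with stage 14 higher. TFEC, a gene of pigment cells, fell, at 1.87, 1.65 and 1.62 and then 0.704, 0.681 and 0.541 TPM (-1.13 ± 0.47, adjusted p = 0.0402). The call of TFEC was lost on leaving out any single library (0.0541 to 0.103). PAX7, a gene of the plate border, was at 20.2, 6.75 and 19.0 TPM with replicate 2 the lowest and rose to 65.6, 84.5 and 83.7 (2.61 ± 0.26, adjusted p = 2.03e-10). PAX3 stayed at or below 0.234 TPM in all 6 embryos. MSX2, a target of BMP signals at the border, rose from 5.91, 2.84 and 6.14 to 32.4, 35.8 and 47.2 TPM (3.22 ± 0.41, adjusted p = 2.87e-08). Replicate 2 of stage 12 was the lowest stage 12 embryo for 16 of the 19 genes of this list that rose. It was also the lowest for 67.5% of the wider set of genes higher at stage 16 than at stage 11. For cranial placodes, the thickenings that form sense organs and ganglia, 10 of 23 genes rose and 2 fell (43.5% and 8.70%, against 27.4% and 24.9% of all genes), or 10 and 4 by library size alone. EYA1 rose from 1.88, 0.801 and 2.85 to 15.4, 13.5 and 17.1 TPM (3.34 ± 0.38, adjusted p = 1.03e-08) and PAX2, of ear and isthmus, by 2.83 ± 0.28. EYA4, of the same family as EYA1, fell (-0.84 ± 0.17, adjusted p = 5.55e-05). HMX2, an inner ear gene, had 0 counts at stage 12 and 16.5, 9.66 and 16.9 TPM at stage 14, at least 64.0-fold higher (adjusted p = 2.33e-06).

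HOX genes rose along most of the length of the clusters. Of 36 tested 28 rose (77.8% against 27.4% of all genes) and 0 fell (25 and 0 by library size alone). Of the 36, 24 rose at least 4-fold, against 11.2% of all genes, and the median change was 3.87. At stage 12, 6 of the 38 HOX genes in the table were at 1 TPM or more in every embryo, and at stage 14 this number was 28. The members shown were chosen after the values of the family were seen.

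Genes at the 3′ end of the clusters, which act in the hindbrain, had begun before stage 12. HOXD1 was the most abundant at 402, 353 and 345 TPM at stage 12 and 245, 237 and 139 at stage 14, lower in all 3 later embryos but without a significant change (-0.56 ± 0.52, adjusted p = 0.382). HOXB1 rose from 7.87, 2.60 and 13.6 to 28.7, 36.6 and 57.8 TPM (2.63 ± 0.81, adjusted p = 0.00665), and the lowest embryo of stage 14 was above the highest of stage 12. All 10 genes numbered 3 to 5 rose, 8 of them at least 4-fold, with a median of 3.44. Some HOX genes rose with calls near the threshold. HOXA2 (1.79 ± 0.77, adjusted p = 0.0494) lost its call whichever single library was left out (adjusted p = 0.0649 to 0.116) and with the replicate number as a block (0.0528). HOXA5 (2.14 ± 0.85, adjusted p = 0.0377) lost it without replicate 1 or 2 of stage 12 (0.0547 and 0.108) or replicate 1 or 2 of stage 14 (0.0883 and 0.0736). HOXB3 (1.57 ± 0.55, adjusted p = 0.0163) lost it without replicate 2 of stage 12 (0.0638) or replicate 1 of stage 14 (0.0585).

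Of the genes of the trunk, numbered 6 to 9, 11 of 12 rose and each of the 11 by at least 4-fold, with a median of 5.81 (5.76 with bounds). HOXA9 rose from 0.659, 0.180 and 0.701 to 26.4, 28.0 and 20.4 TPM (5.85 ± 0.44, adjusted p = 1.68e-13). HOXB8 rose from 0.561, 0.0599 and 1.17 to 26.7, 31.8 and 21.4 TPM (5.80 ± 0.44, adjusted p = 1.74e-13) and HOXB9 from 1.34, 0 and 0.950 to 52.8, 39.3 and 26.6 TPM (5.81 ± 0.93, adjusted p = 1.43e-05). For all 3, replicate 2 was the lowest embryo of stage 12. It alone was the lowest for 14 of the 28 HOX genes that rose, replicate 1 for 3 and replicate 3 for 1, and the rest were tied. Over the wider set of genes higher at stage 16 than at stage 11 replicate 2 was the lowest for 67.5%. That share leaves out tied genes, so it cannot be set directly against 14 of 28. HOXC6 had 0 counts at stage 12 and 5.51, 5.62 and 3.06 TPM at stage 14, at least 191-fold higher (adjusted p = 1.08e-09). HOXD9, also at 0, was at least 33.3-fold higher (adjusted p = 2.77e-06). HOXC8, with 3 counts at stage 12, reached 16.8, 14.2 and 9.52 TPM, a ratio of 523-fold, with an exact counting interval of 178 to 2544 (adjusted p = 3.75e-09). HOXA6 was the member that did not pass (1.46 ± 1.02, adjusted p = 0.236). Among the 11 posterior genes, numbered 10 to 13, 9 could be tested and 4 rose, all at least 4-fold. These were HOXA10 (4.96 ± 0.79, adjusted p = 5.70e-06), HOXA11, HOXB13, at 0, 0 and 0.539 and then 9.31, 13.5 and 16.3 TPM, and HOXC10, which was at least 35.9-fold higher (adjusted p = 8.42e-05). HOXB13 had 2 counts over stage 12, and its ratio was 126-fold, with an exact counting interval of 34.3 to 1055 (adjusted p = 2.06e-07). HOXA11, with 1 count, had a ratio of 68.6-fold, with an exact counting interval of 11.5 to 2787 (adjusted p = 3.99e-04). At stage 14, 3 of the 11 posterior genes reached 1 TPM in every embryo and another 3 were at 0 counts.

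**Figure D4:**
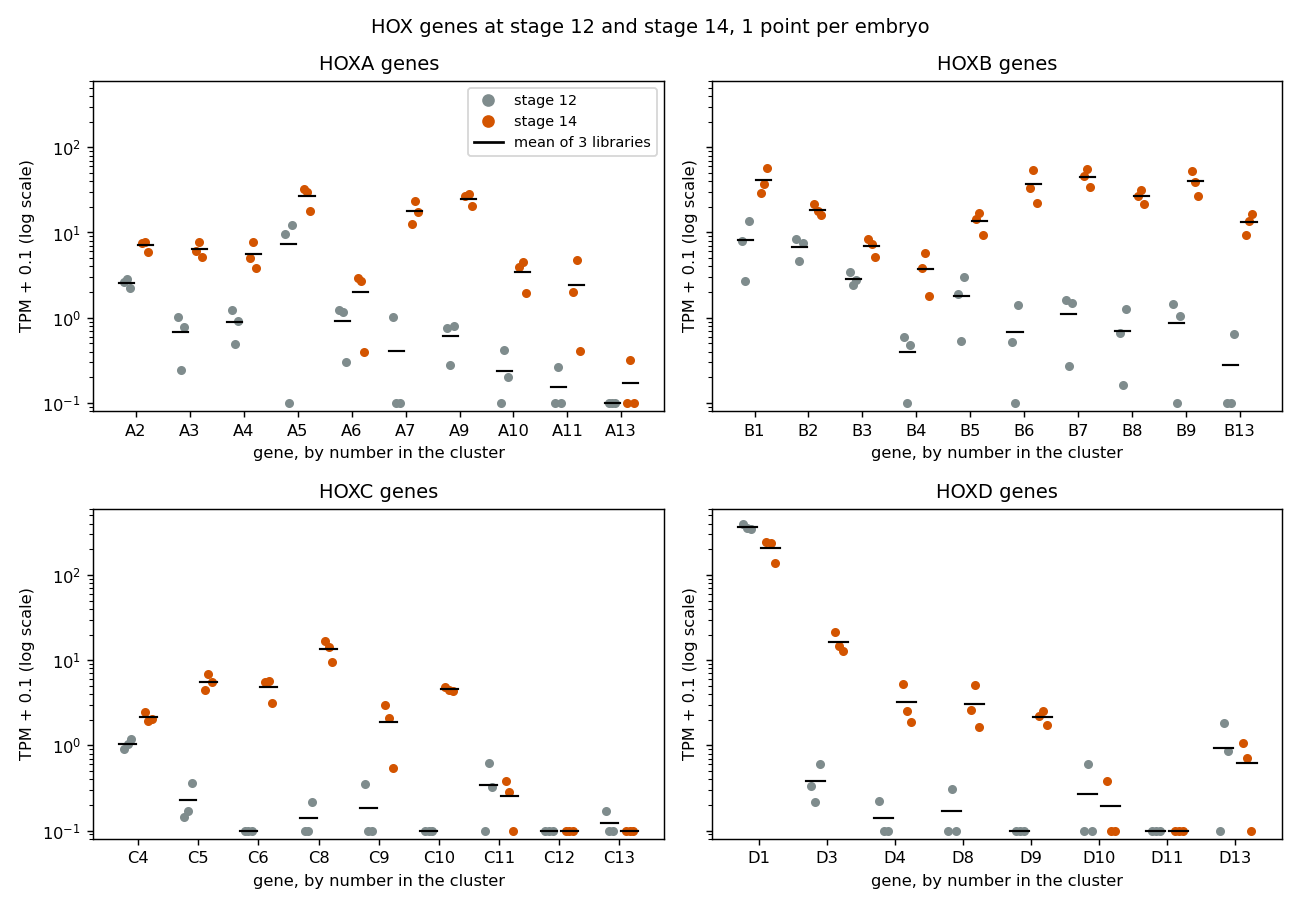
TPM of HOX genes in the 4 clusters (vertical axis, TPM + 0.1 on a log scale), ordered by number along the horizontal axis, 1 point per embryo, grey for stage 12 and orange for stage 14, bars at the mean of 3. The orange points lie above the grey ones for nearly all genes numbered 3 to 9, HOXD1 stands highest at both stages, and most genes numbered 11 to 13 stay near the floor.

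Retinoic acid, a vitamin A derivative that activates HOX genes, is made by aldehyde dehydrogenases and cleared by CYP26 enzymes. In this list 12 of 24 genes rose and 3 fell (50.0% and 12.5%, against 27.4% and 24.9% of all genes). These numbers were 11 and 4 by library size alone and 14 and 1 by DESeq2 size factors. ALDH1A2, the main synthetic enzyme of trunk mesoderm, fell from 281, 291 and 280.5 to 118, 112 and 98.7 TPM without overlap (-1.10 ± 0.44, adjusted p = 0.0327), and the call was lost on leaving out any single library (0.0523 to 0.0847). RDH10, which makes the retinaldehyde these enzymes use, fell from 192, 207 and 194 to 111, 126 and 130.1 TPM (-0.41 ± 0.11, adjusted p = 0.00161), a call lost by DESeq2 size factors (0.0659) and in the DESeq2 Wald test (0.0512). CYP26A1 also fell, from 23.4, 16.5 and 21.3 to 10.9, 6.47 and 10.2 TPM (-0.87 ± 0.21, adjusted p = 7.54e-04). Their relatives of the head moved the other way, with CYP26C1 rising from 1.53, 0.650 and 2.33 to 40.3, 21.8 and 20.5 TPM (4.50 ± 0.49, adjusted p = 1.75e-09) and ALDH1A3 by 6.41 ± 0.73 (adjusted p = 8.63e-08). The receptor RXRA rose from 0.704, 0.461 and 0.407 to 6.81, 12.1 and 7.55 TPM (4.30 ± 0.32, adjusted p = 1.72e-13).

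Of 23 notochord and floor plate genes 10 rose and 4 fell (43.5% and 17.4%, against 27.4% and 24.9% of all genes), or 9 and 6 by library size alone. The 4 that fell were T, GSC, NODAL and LEFTY2, which are also in the gastrula mesoderm and organizer list and were counted there. SHH, the signal of notochord and floor plate, was at 19.5, 14.7 and 12.6 and then 17.2, 18.6 and 20.0 TPM (0.52 ± 0.71, adjusted p = 0.570). CHRD, the BMP antagonist of organizer and notochord, was at 293, 251 and 294 and then 121, 155 and 185 TPM (-0.59 ± 0.42, adjusted p = 0.241). CHRD did not pass, and every stage 14 embryo was below every stage 12 embryo, as for 39.3% of all genes tested. FOXA1, of floor plate and endoderm, rose from 0.0338, 0.0559 and 0.290 to 5.48, 4.64 and 9.40 TPM (6.19 ± 0.89, adjusted p = 5.17e-07). COL2A1, the collagen of the notochord sheath and cartilage, rose from 1.30, 0.584 and 1.07 to 2.23, 8.74 and 3.23 TPM (2.52 ± 0.59, adjusted p = 4.37e-04). In the presomitic, somite and early muscle list 10 of 36 rose and 3 fell (27.8% and 8.33%, against 27.4% and 24.9% of all genes). MYF5 and MYOD1, the muscle-determining factors, were at 63.8 ± 2.09 and 7.41 ± 1.78 TPM at stage 12 (SD, n = 3) and at 86.4 ± 9.49 and 9.34 ± 2.32 at stage 14, without passing the test. TBX6, of unsegmented mesoderm, did not pass either (-0.69 ± 0.57, adjusted p = 0.320). The genes that rose included some of somites and muscle that form later, such as MEOX1, from 13.0, 16.9 and 18.8 to 67.3, 64.6 and 51.1 TPM (2.20 ± 0.43, adjusted p = 8.69e-05), and MEF2C (3.32 ± 0.38, adjusted p = 3.05e-09). DMRT2 of the dermomyotome rose from 0.117, 0.109 and 0.213 to 5.31, 4.47 and 4.39 TPM (5.33 ± 0.59, adjusted p = 1.36e-09).

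In the lateral plate, heart, blood and vessel list 15 of 37 genes rose and 1 fell. The shares were 40.5% and 2.70%, against 27.4% and 24.9% of all genes. The median change was 1.82 (1.34 with bounds), and by library size alone 15 rose and 3 fell. HAND1, a gene of the lateral plate, went from 0.888, 0.335 and 0.291 TPM to 185, 89.4 and 131 TPM (8.13 ± 0.49, adjusted p = 7.40e-16). No stage 12 embryo reached 1 TPM, and the stage 14 embryos were all at 89.4 or more. TAL1, which starts blood formation, rose from 0.704, 0.210 and 0.136 to 23.3, 28.7 and 24.4 TPM (6.22 ± 0.54, adjusted p = 6.57e-12). FLI1, of vessels and blood, had 2 counts at stage 12 and reached 4.75, 3.49 and 3.49 TPM, a ratio of 278-fold, with an exact counting interval of 76.4 to 2310.1 (adjusted p = 1.52e-11). The heart gene NKX2-5 rose from 2.21, 2.04 and 1.72 to 5.32, 5.75 and 7.82 TPM (1.92 ± 0.55, adjusted p = 0.00364). KLF2, of vessels and blood, fell from 65.8, 69.5 and 36.8 to 17.5, 11.2 and 19.5 TPM (-1.55 ± 0.38, adjusted p = 8.37e-04). For the pronephros, the larval kidney, 11 of 25 genes rose and 1 fell (44.0% and 4.00%, or 9 and 1 genes by library size alone). PAX8, needed to form it, rose from 1.06, 0.407 and 1.36 to 33.2, 35.7 and 26.6 TPM, with replicate 2 again the lowest embryo of stage 12 (5.35 ± 0.40, adjusted p = 1.38e-13).

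In the shares called, endoderm genes were near the background of all genes. Of 26 tested 7 rose and 5 fell (26.9% and 19.2%, against 27.4% and 24.9% of all genes), or 7 and 7 by library size alone. Large falls were not near the background. At least 4-fold, 5 of the 26 rose and 4 fell, against 11.2% and 0.949% of all genes. Those that fell were CER1 (-4.06 ± 0.45), EOMES (-3.06 ± 0.48), TTR (-3.04 ± 1.07), MIXL1 (-2.53 ± 0.46) and EPCAM (-0.85 ± 0.24). CER1, EOMES and MIXL1 are also in the gastrula mesoderm and organizer list. Their median change was 0.08 and turned negative with library size alone (-0.19) and without replicate 3 of stage 14 (-0.0071). Their summed level went from 2362 to 2607 TPM at stage 12 to 1371 to 1456 TPM at stage 14. These sums lack the scaling between libraries that the fitted changes use, so they are no measure of a fall. The early endoderm factors SOX17 and GATA6 did not pass, and neither pair of groups overlapped. TPM without overlap and lower at stage 14 were found for 39.3% of all genes tested. SOX17 was at 46.7, 40.1 and 36.4 and then 24.9, 17.3 and 27.6 TPM (-0.54 ± 0.42, adjusted p = 0.294). GATA6 was at 114, 116 and 97.8 and then 90.2, 68.9 and 82.1 TPM (-0.16 ± 0.45, adjusted p = 0.801). The fitted change of GATA6 was 0.0025 by DESeq2 size factors and 0.0037 in the DESeq2 Wald test. FOXA2, of endoderm and floor plate, was at 60.1, 65.2 and 58.9 and then 31.4, 37.9 and 44.8 TPM (-0.41 ± 0.18, adjusted p = 0.0583). GATA5, of endoderm and heart, rose from 3.61, 1.31 and 1.63 to 46.7, 28.6 and 38.7 TPM (4.33 ± 0.51, adjusted p = 5.37e-09). SOX7, a relative of SOX17 also found in vessels, rose from 0.629, 0.114 and 0.149 to 11.6, 23.4 and 13.2 TPM (5.75 ± 0.73, adjusted p = 2.70e-08).

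Of 53 genes of surface ectoderm and epidermis 23 rose and 3 fell (43.4% and 5.66%, against 27.4% and 24.9% of all genes), or 21 and 8 by library size alone. Their summed level went from 7965 to 9419.6 TPM at stage 12 to 12776 to 15379.5 TPM at stage 14. KRT6A, a keratin of stratified epithelia, rose from 37.6, 17.9 and 100.3 to 1382, 1478 and 1218 TPM (4.99 ± 0.44, adjusted p = 8.31e-12), and its stage 12 embryos differed among themselves, replicate 2 being the lowest. KRT6C, a keratin outside the list that was selected for the size of its change, had 0 counts at stage 12 and was at least 114-fold higher at stage 14, at 13.8, 8.28 and 17.8 TPM (adjusted p = 1.54e-08). Reads of near-identical keratins can be shared between members, so single keratin values are uncertain. KRT18, a keratin of simple epithelia, was already high at 313, 247 and 279.6 TPM and rose to 339.9, 455 and 375 (0.74 ± 0.30, adjusted p = 0.0360). The call of KRT18 was lost without replicate 2 or 3 of stage 12 (0.126 and 0.0777) or replicate 2 or 3 of stage 14 (0.0986 and 0.0652). PPL (periplakin), which ties keratin to desmosomes, rose from 2.30, 0.702 and 4.24 to 91.0, 119 and 88.1 TPM (5.66 ± 0.50, adjusted p = 1.27e-11). TP63, the master regulator of basal epidermis, rose from 2.08, 2.77 and 1.95 to 11.0, 13.2 and 8.99 TPM (2.56 ± 0.19, adjusted p = 1.50e-13), with the 3 embryos of each stage close together. GRHL3, an epidermal factor needed for neural tube closure, did not pass at 226, 172 and 214 and then 289.5, 251 and 375 TPM (0.86 ± 0.51, adjusted p = 0.156). The desmosomal cadherin DSC2 fell (-0.84 ± 0.11, adjusted p = 5.25e-08).

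Ion-transporting cells of the larval skin carry proton pumps and anion exchangers. A gene of each kind, neither of them in the epidermis list, was selected for the size of its change. SLC26A4 (pendrin), an anion exchanger, rose from 0.0338, 0 and 0.288 to 26.9, 62.4 and 57.7 TPM (9.40 ± 0.62, adjusted p = 1.27e-13). ATP6V1C2, a subunit of the proton pump, had 0 counts at stage 12 and stood at 16.8, 18.8 and 1.46 TPM at stage 14, at least 98.0-fold higher (adjusted p = 8.48e-06), with replicate 3 far below the other two embryos. FOXI1, which specifies such cells in frogs and mammals, was added after its values were seen. It was present in both groups at 75.3, 37.6 and 64.8 and 51.3, 29.5 and 39.0 TPM and did not pass (-0.29 ± 0.39, adjusted p = 0.558). GFI1, a zinc-finger repressor of sensory hair cells and blood, was selected by the same rule and went from 0 counts to 20.3, 14.9 and 20.8 TPM, at least 329-fold higher (adjusted p = 1.17e-11). GCM1, a transcription factor known from the placenta, went from 0 counts to 3.23, 19.2 and 8.19 TPM, at least 122-fold higher (adjusted p = 1.29e-07), and its replicate 1 was the lowest stage 14 embryo.

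Motile cilia genes, used by ciliated skin cells and by the node of left-right patterning, had no common direction. Of 64 tested 19 rose and 13 fell (29.7% and 20.3%, against 27.4% and 24.9% of all genes). The numbers were 22 and 11 by DESeq2 size factors and 13 and 19 by library size alone, and the sign of their median (-0.04) turned under 5 of the alternatives. FOXJ1, the regulator of motile ciliogenesis, was at 19.4, 18.6 and 20.5 and then 11.7, 12.0 and 13.6 TPM (-0.37 ± 0.32, adjusted p = 0.339). RSPH1, of the radial spoke, rose from 11.0, 9.82 and 8.32 to 57.8, 65.9 and 49.9 TPM (2.83 ± 0.34, adjusted p = 6.84e-09). SPATA18 (2.85 ± 0.33, adjusted p = 4.56e-09) and EFHC2 (3.24 ± 0.44, adjusted p = 1.78e-07) also rose. IFT52, of the transport machinery that builds all cilia, fell from 27.5, 28.2 and 27.6 to 5.48, 4.98 and 7.95 TPM (-1.91 ± 0.20, adjusted p = 4.99e-10). CCDC103, needed to assemble dynein arms, fell as well (-1.43 ± 0.35, adjusted p = 7.32e-04).

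Genes that shape the neural plate moved in both directions. In the list of convergent extension, planar polarity and neural tube closure 24 of 55 rose and 10 fell. The shares were 43.6% and 18.2%, against 27.4% and 24.9% of all genes. By library size alone 21 rose and 15 fell. VANGL2, a core planar polarity protein, fell from 14.3, 17.2 and 14.1 to 6.30, 7.23 and 6.12 TPM (-0.94 ± 0.15, adjusted p = 1.90e-06). The Frizzled receptor FZD6, of the same pathway, rose from 1.42, 1.75 and 2.46 to 11.9, 13.0 and 7.18 TPM (2.82 ± 0.23, adjusted p = 1.06e-12). SHROOM3, which drives apical constriction of neural plate cells, rose from 2.46, 2.51 and 2.43 to 3.03, 5.82 and 3.78 TPM (1.04 ± 0.25, adjusted p = 5.45e-04). Its relative SHROOM2 fell from 20.1, 23.7 and 21.0 to 9.21, 9.25 and 9.53 TPM (-0.94 ± 0.12, adjusted p = 3.55e-08). Of the 64 extracellular matrix genes 37 rose and 1 fell (57.8% and 1.56%, or 35 and 1 genes by library size alone). Of the 64, 32 rose at least 4-fold, against 11.2% of all genes, and the median change was 2.12 (2.04 with bounds). FBN3, a fibrillin, rose from 0.432, 0.316 and 0.575 to 23.2, 23.8 and 13.8 TPM (5.82 ± 0.27, adjusted p = 1.27e-18). LAMB1, a laminin chain of basement membranes, rose from 11.1, 10.3 and 11.2 to 32.6, 59.9 and 38.5 TPM (2.27 ± 0.16, adjusted p = 4.06e-14). FBLN1, a fibulin, rose from 12.5, 11.3 and 10.9 to 36.7, 45.2 and 25.6 TPM (1.89 ± 0.15, adjusted p = 3.84e-13). Replicate 2 of stage 14 was the highest embryo for all 3 of these genes.

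Most signalling lists had more genes rising than falling. In the Wnt pathway 35 of 63 genes rose and 6 fell (55.6% and 9.52%, against 27.4% and 24.9% of all genes), or 28 and 12 by library size alone. KREMEN1, a receptor for the Wnt inhibitor Dickkopf, rose from 0.647, 0.471 and 1.07 to 30.1, 27.3 and 32.9 TPM (5.68 ± 0.52, adjusted p = 4.26e-11). APC, a part of the complex that destroys beta-catenin (-1.82 ± 0.23, adjusted p = 3.80e-08), and the Wnt receptor RYK (-0.90 ± 0.10, adjusted p = 1.16e-09) fell. In the hedgehog pathway 12 of 21 rose and 4 fell (57.1% and 19.0%, or 7 and 5 genes by library size alone). GLI3, a transcription factor of the pathway, rose from 3.14, 1.93 and 6.24 to 21.6, 23.7 and 21.1 TPM (2.84 ± 0.33, adjusted p = 4.08e-09). PTCH1, receptor and target of the pathway, rose from 17.8, 12.4 and 14.9 to 21.9, 24.2 and 22.1 TPM (0.86 ± 0.31, adjusted p = 0.0171), but the call was lost without replicate 2 of stage 12 (0.0860). The inhibitors KIF7 and SUFU, which hold GLI proteins back, both fell. KIF7 went from 11.6, 14.8 and 15.0 to 4.68, 3.59 and 4.42 TPM (-1.42 ± 0.15, adjusted p = 8.27e-10) and SUFU went from 41.9, 48.2 and 45.7 to 19.2, 14.3 and 19.2 TPM (-1.08 ± 0.12, adjusted p = 2.62e-09). None of these 4 genes had overlapping groups, as for 22.7% of all genes tested with stage 14 higher and 39.3% with it lower. Among 49 BMP and Nodal pathway genes 20 rose and 9 fell (40.8% and 18.4%, or 18 and 14 genes by library size alone). SMAD9, a BMP effector, rose (2.60 ± 0.23, adjusted p = 1.11e-11) and the receptor ACVR1 fell (-0.75 ± 0.11, adjusted p = 2.35e-07). In the FGF pathway 15 of 38 rose and 5 fell (39.5% and 13.2%, or 12 and 7 genes by library size alone). Feedback inhibitors of FGF signalling went both ways. DUSP5 rose from 14.8, 7.39 and 14.0 to 67.6, 65.6 and 57.7 TPM (2.66 ± 0.25, adjusted p = 4.05e-11) and DUSP4 fell from 73.6, 96.9 and 53.4 to 20.0, 20.6 and 19.7 TPM (-1.62 ± 0.16, adjusted p = 1.70e-10). The ligand FGF8 was at 20.9, 27.0 and 21.7 and then 37.3, 28.5 and 29.5 TPM, with every later embryo higher, and did not pass (0.74 ± 0.35, adjusted p = 0.0727). Notch pathway genes were near the background of all genes, 8 of 37 rising and 7 falling (21.6% and 18.9%, or 6 and 11 genes by library size alone). RFNG, which modifies Notch receptors, fell (-1.64 ± 0.21, adjusted p = 3.62e-08).

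Ribosomal protein mRNA rose as a block. Of 77 genes tested 76 rose and 0 fell (98.7% and 0%, against 27.4% and 24.9% of all genes). The median change was 1.28, and both other scalings gave the same 76 and 0. The median was 1.44 by DESeq2 size factors and 1.01 by library size alone. Together they held 3.03% to 3.64% of all TPM in the stage 12 embryos and 6.73% to 6.78% in those of stage 14. RPLP0, of the ribosomal stalk, was at 639, 523 and 679 TPM at stage 12 and at 1404, 1661 and 1485 at stage 14 (1.58 ± 0.19, adjusted p = 6.25e-09). Replicate 2 was the lowest stage 12 embryo for RPLP0 and for 69 of the 76 genes, and the groups of RPLP0 did not overlap. This embryo was also the lowest for 67.5% of the wider set of genes higher at stage 16 than at stage 11. Of 72 oxidative phosphorylation genes 30 rose and 4 fell (41.7% and 5.56%). By library size alone 22 rose and 14 fell, where 3030 of all 14437 genes rose and 4951 fell. NDUFV3 of complex I was among those that rose (1.89 ± 0.26, adjusted p = 9.88e-08).

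Of 71 cell cycle and replication genes 19 rose and 23 fell (26.8% and 32.4%, against 27.4% and 24.9% of all genes). These numbers were 25 and 16 by DESeq2 size factors and 6 and 27 by library size alone. CDK1, the kinase of mitosis, rose from 72.4, 76.3 and 81.3 to 315, 375 and 391 TPM (2.51 ± 0.22, adjusted p = 9.71e-12). CCNA1, a cyclin of early embryos and germ cells, rose from 1.00, 1.16 and 0.854 to 12.3, 18.4 and 17.1 TPM (4.25 ± 0.42, adjusted p = 9.13e-11). The cell cycle inhibitor CDKN1A rose by 1.99 ± 0.24 (adjusted p = 6.60e-09). CDT1, which licenses replication origins and is held back by geminin, fell from 1032, 1037 and 989 to 402, 488 and 412 TPM (-0.96 ± 0.10, adjusted p = 4.63e-10). CDK6, a kinase of the entry into S phase, fell too (-1.48 ± 0.18, adjusted p = 9.23e-09). In the oocyte and germ plasm list 5 of 48 rose and 13 fell (10.4% and 27.1%, against 27.4% and 24.9% of all genes). These numbers were 4 and 26 by library size alone and 6 and 7 by DESeq2 size factors. H1FOO, the oocyte linker histone, was still at 126, 140.3 and 114 TPM at stage 12 and fell to 40.0, 43.8 and 39.4 (-1.35 ± 0.18, adjusted p = 6.27e-08). BTG3, an antiproliferative gene, fell from 184, 193 and 153 to 38.9, 46.9 and 43.1 TPM (-1.77 ± 0.22, adjusted p = 1.91e-08).

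The remaining genes selected for the size of their change were of mixed function. ST8SIA2, which makes the polysialic acid of NCAM1, had 0 counts at stage 12 and 11.0, 18.2 and 12.3 TPM at stage 14 (at least 110.4-fold higher, adjusted p = 5.09e-09). DTHD1 rose from 0.0151, 0.0247 and 0.0643 to 21.8, 51.4 and 31.5 TPM (10.37 ± 0.57, adjusted p = 4.17e-11). SAMD10 and the cytokine receptor IL20RB each had 1 count at stage 12, and their ratios were 1153-fold, with an exact counting interval of 206 to 45612, and 972-fold, with an exact counting interval of 174 to 38487 (adjusted p = 1.13e-08 and 1.20e-11). FOXD1, a forkhead gene, fell from 29.1, 30.4 and 51.1 to 1.14, 1.67 and 1.97 TPM (-4.19 ± 1.07, adjusted p = 0.00196). The stress-induced pseudokinase TRIB3 fell from 168, 209 and 151 to 24.5, 19.0 and 20.1 TPM (-2.77 ± 0.29, adjusted p = 6.08e-10). The ubiquitin ligase WWP1 (-2.80 ± 0.17, adjusted p = 1.69e-15) and the chaperone HSP90AA1 (-2.79 ± 0.31, adjusted p = 1.74e-09) fell too, and reads of HSP90AA1 can be shared with near-identical HSP90 genes. DENND2D (-2.79 ± 0.20, adjusted p = 9.58e-14), CTU2, of tRNA modification (-2.73 ± 0.34, adjusted p = 1.64e-08), and R3HDML (-2.69 ± 0.34, adjusted p = 2.92e-08) completed the group. The rule that selected genes for the size of their change, in this paragraph and above, required TPM values that did not overlap. The separation of these genes between the stages is therefore no separate result.

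Genes of differentiated tissue of later embryos served as a check on stage. Of 60 tested 8 rose and 2 fell (13.3% and 3.33%, against 27.4% and 24.9% of all genes), and the summed level of the list was 201 to 229 TPM at stage 12 and 326 to 415 at stage 14. HBE1 was in the panel of named genes, and ALB, CRYBB1, TNNT3, MYH3 and CKM were chosen after their values were seen. HBE1 (embryonic globin) was at 0.170 TPM or less in all 6 embryos, ALB (serum albumin), CRYBB1 (lens crystallin) and TNNT3 (fast troponin) were at 2.37 TPM or less, and MYH3 (embryonic myosin) was at 1.65 to 3.50 TPM. CKM (muscle creatine kinase) was at 49.4, 62.0 and 36.5 TPM at stage 12 and 43.6, 36.9 and 20.7 at stage 14, with overlapping groups (-0.27 ± 0.36, adjusted p = 0.553). None of these 6 genes passed the test. Among the genes of the list that rose were FGA, a fibrinogen chain (6.29 ± 1.60, adjusted p = 0.00113), and TNNT1, a troponin (3.65 ± 0.72, adjusted p = 1.39e-04). Markers of the germ layers were present at both stages, SOX2 and OTX2 for neural tissue, T, TBX6 and MYOD1 for mesoderm, SOX17, GATA6 and FOXA2 for endoderm, and KRT18, TP63 and GRHL3 for epidermis. SOX3 was not analysed here.

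To place the step beside the one that follows, the change from stage 12 to 14 was tested against the change from stage 14 to 16 within the same fit, in which both steps share the stage 14 embryos. The 2 changes differed for 3215 of 14437 genes (22.3%), with the earlier change the more positive for 2079 (14.4%) and the more negative for 1136 (7.87%). By DESeq2 size factors these were 2447 and 806, by library size alone 1449 and 1986, and without replicate 2 of stage 14 they were 1516 and 616. From stage 14 to 16 itself 28 genes rose and 36 fell. HOXA9 changed by -0.03 over the later step (adjusted p of the difference 2.77e-09). RAX changed by -0.32 (2.77e-09), KRT6A by 0.08 (2.21e-07) and POU5F1 by -0.72 (1.11e-04). SOX10 stood at 23.1 ± 2.69 TPM at stage 14 (SD, n = 3) and at 47.7 ± 8.74 at stage 16, a log2 change of 1.05 that was still smaller than that of the earlier step (1.86e-06). HAND1 (0.52, 4.56e-11), PAX8 (0.59, 3.76e-08) and RPLP0 (0.12, 5.56e-04) likewise differed between the steps, and for all of these genes the later change was the smaller in size and did not itself pass the test (adjusted p = 0.386 or more). NODAL and LEFTY2 had fitted later changes of 1.59 and 2.16 that did not pass the test (adjusted p = 0.525 and 0.250), while the difference between the steps did (3.10e-04 and 1.72e-04). For T (0.289), MIXL1 (0.0772) and MEOX1 (0.135) the difference between the steps did not pass.

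**Figure D5:**
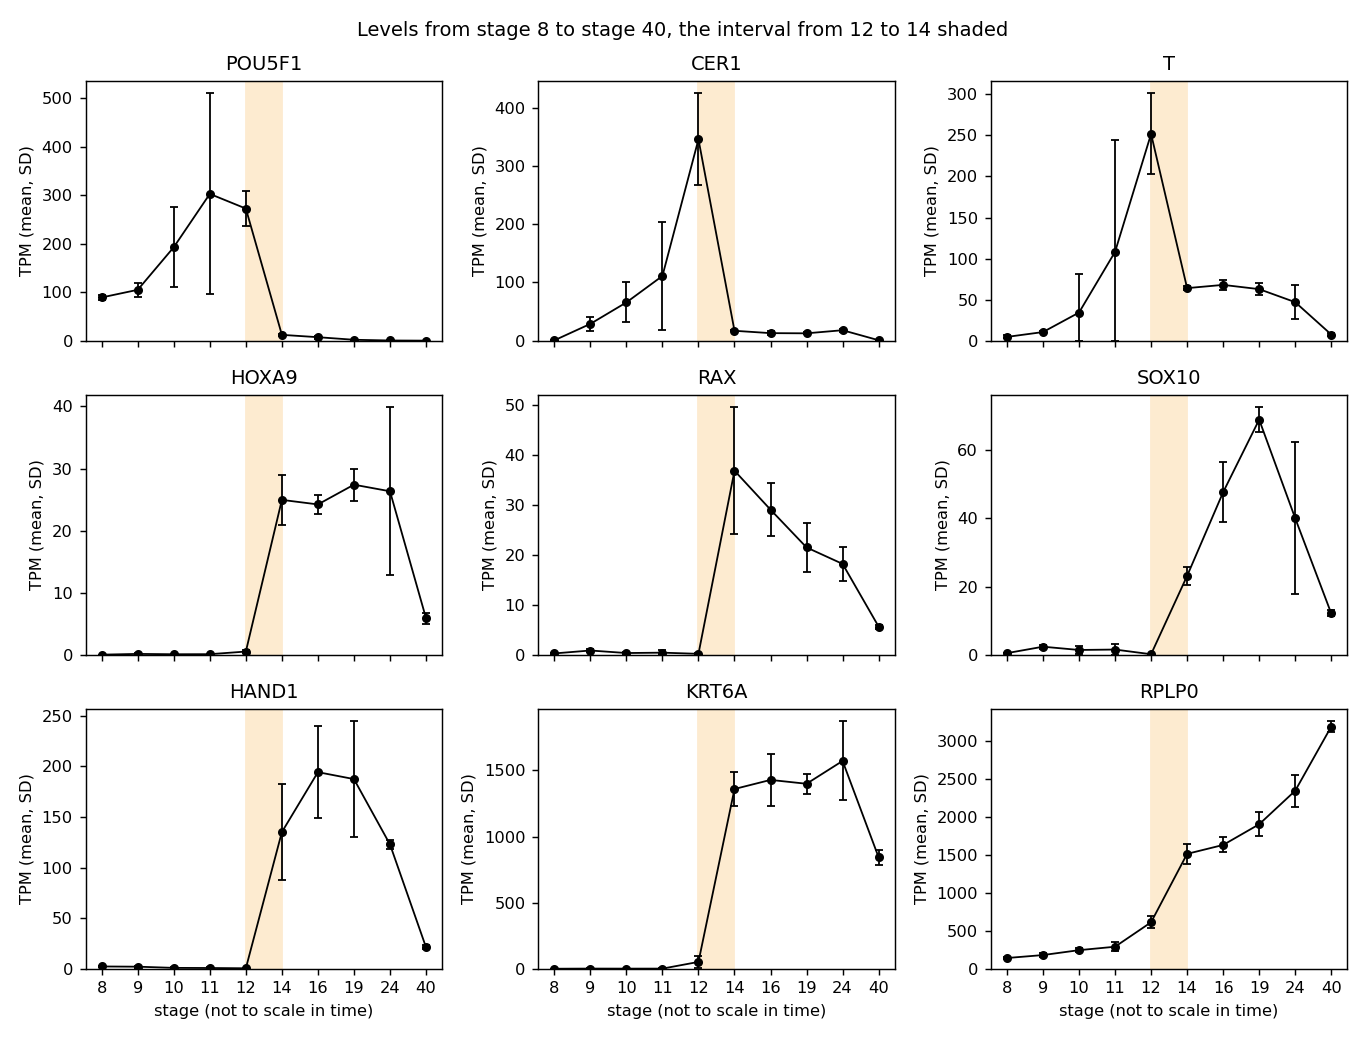
Mean TPM with SD of 9 genes from stage 8 to stage 40 (horizontal axis, stages not to scale in time), with the interval from stage 12 to stage 14 shaded. Each mean is over 3 embryos except at stage 11, which has 2, and error bars are drawn no lower than 0. HOXA9, RAX and HAND1 leave the baseline within the shaded interval, KRT6A, already above its stage 11 level at stage 12, climbs further, POU5F1 and CER1 fall there, T falls and then holds its level until stage 19, and RPLP0 climbs on to stage 40.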

How the data were processed

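Poly(A) RNA of 49 single embryos was read as paired 101-base reads, 6 libraries per lane, per the labels. The deposited tables hold expected counts (estimated counts per gene, not normalized between libraries) and TPM, which the authors scaled for library total and gene length. The submitters' processing notes list RSEM 1.1.6 and Bowtie 0.12.1 without saying what each did. The reference behind the gene models is not stated in the labels. Strand is not stated, so genes that overlap on opposite strands cannot be separated. Total RNA libraries were not used here, and 0 columns lay outside the labels.

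Expected counts, rounded to whole numbers, entered 1 quasi-likelihood fit of 17 stages in edgeR 4.0.16 (R 4.3.3) with TMM scaling and filterByExpr by stage. Of 15631 genes 14437 were tested, and the others together had 0.00288% of the counts. The fit had a common dispersion of 0.0429 and 32 residual degrees of freedom by the design. P-values were Benjamini-Hochberg adjusted within each comparison, with a threshold of 0.05, and each SE was derived as the absolute log2 change divided by the root of F. Where a stage had 0 counts the fold is a bound, computed with 3 counts in place of the 0 (summed over the group), and where it had 1 to 3 counts the fold is a ratio with an exact interval of 95%. Bounds and intervals cover counting error only, and reads carry no molecular identifiers. Data were also simulated with stage 14 drawn from the stage 12 means, except for 100 genes changed 2-fold and 100 changed 4-fold. As many of these went up as down, and none was near 0 at stage 12. Of the changes, 66 of 100 2-fold and 94 of 100 4-fold were recovered, with 10 false calls among the unchanged genes. In the real data far more genes changed and large changes went mostly upward, so these numbers do not give the error rate of the comparison.

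The rule for named genes took, from called genes that carry a symbol, the 10 that rose most and the 10 that fell most, given a mean of at least 10 TPM in the stage where the gene was higher and TPM values that did not overlap. It added a panel of 74 genes, of which 69 were in the table, and up to 3 members each way with the smallest adjusted p from each of 28 lists. Lists have no test of their own and are given as counts beside those of all genes. A gene can be in several lists and is then counted in each, so the lists are not independent. The comparison, lists, panel and rule were chosen with earlier results of these data known. The RefSeq table used here holds 11354 of the gene names as symbols, and 377 LOC names were not named. Some genes are not reported here.

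Alternatives were DESeq2 1.42.0 size factors, library size alone, the DESeq2 Wald test, no filter, only the stages compared, the replicate number as a block, other TPM limits, and each library left out in turn. Chi-square per degree of freedom within stages was 14.7 or more, so no libraries were merged.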

Additional observations from a re-analysis of the deposited data

Results flagged for a closer look

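The change from stage 12 to 14 differed from the change from stage 14 to 16 by a test of the difference itself (edgeR quasi-likelihood test, Benjamini-Hochberg adjusted). The earlier change was the more positive for 2079 genes and the more negative for 1136, and both steps share the 3 embryos of stage 14. Without replicate 2 of stage 14 these numbers were 1516 and 616.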

How the results depend on the processing

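The number of genes higher at stage 14 was 3547 to 3752 when each library was left out in turn and the number lower 3125 to 3346, and the counts stayed within 1.5 times of 3960 and 3590 under the other alternatives. The replicate number as a block gave 3939 and 3567, and only stages 12 and 14 gave 3713 and 3351, or 3611 and 3092 with the block. Same-numbered embryos did not deviate together over all tested genes (correlations -0.008, 0.0075 and -0.0087). Whether they shared a clutch was not tested. Genes at least 4-fold lower numbered 137, and 239 by library size alone, 91 in the fit of only stages 12 and 14 and 84 in the DESeq2 Wald test, and 118 to 166 with a library left out. The 2 changes differed for 3215 genes, for 3160 with the replicate block and for 2132 to 3088 with a library left out, lowest without replicate 2 of stage 14. Genes lost to below the lower limit numbered 1, 2 with limits of 0.1 and 1 TPM and 0 with 1 and 10 TPM. The difference in detected genes was 499 at 1 TPM and -123 at 5 TPM.

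For 171 genes 2213 values were computed under alternatives, of which 2123 kept their direction and side of the threshold, 60 lost the call, 26 gained it and 4 turned sign. The turned values, none of them called, were those of SOX2 (-0.12, library size alone), GATA6 (0.0025 and 0.0037, DESeq2 size factors and Wald test) and HBE1 (-1.02 to 0.056 with a library left out, positive without replicate 1 of stage 12). Library size alone also ended the calls of HOXA2, HOXA5, HOXB3, SIX3, KRT18 and PTCH1, DESeq2 size factors those of ALDH1A2, RDH10 and TFEC, and the Wald test those of these 3 and of T, MSGN1, HOXA2, HOXA5 and HOXB1. Testing without a filter ended the calls of SIX3 and HOXA2, and the replicate block that of HOXA2 and no other. The cause was not tested. With 3 embryos a stage the exact test of detected genes cannot go below 0.1.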

Other observations

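FGF2, chosen after its values were seen, was at 1.86, 0.698 and 2.17 TPM in the stage 12 embryos and at 0, 0.0207 and 0 TPM in those of stage 14. Its 90 counts at stage 12 against 0 at stage 14 make it at least 15.3-fold lower (edgeR, adjusted p = 6.81e-04). ALX1, a homeobox gene of head mesenchyme, and SPIB, a transcription factor of blood cells, belong to the 61 genes that appeared and were named after their values were seen. SPIB had 0 counts at stage 12 and 6.41, 6.05 and 6.09 TPM at stage 14, at least 86.3-fold higher (adjusted p = 2.04e-08). ALX1 had 1 count at stage 12 and 19.9, 27.4 and 31.8 TPM at stage 14, a ratio of 533-fold with an exact counting interval of 94.9 to 21140.3.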
